A study of Homo sapiens with 4 samples.

Results

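The 9 genes described here encode cytokines of the interleukin 1 (IL1) family (IL1A, IL1B, IL1RN and IL18) and chemokines of the CXC family (CXCL1, CXCL2, CXCL3, CXCL8 and CXCL16). They were taken by symbol from the 19577 genes counted over 4 plates of single MCF10A cells, and all 9 were listed in every plate. MCF10A, a line of non-tumorigenic mammary epithelium of human origin, was used with an H2B-GFP nuclear marker. In each of 4 cultures, 10000 cells were seeded as a round patch on a fibronectin-coated dish and grown for 6 days in medium with 5% horse serum, EGF, insulin, cholera toxin and hydrocortisone, a glucocorticoid. Bands of each patch were then marked by photoactivating dyes with light, and live cells were sorted into 384 wells per patch. In the low-resolution experiment (2 plates) the bands were 1000 to 1500 μm wide, and in the high-resolution experiment (2 plates) the outer and middle bands were 250 μm wide. All 4 patches shared the line, medium and culture time, no interleukin or chemokine was added according to the culture protocol, and 1 line without immune or stromal cells was grown on glass. Bands of single wells were not analysed here, and each value therefore covers the sorted cells of a whole plate.

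IL1A and IL1B are alarm cytokines that bind the receptor IL1R1 with its partner IL1RAP, IL1RN is the antagonist that blocks this receptor, and IL18 is a related cytokine that epithelia hold as an inactive precursor. CXCL1, CXCL2, CXCL3 and CXCL8 carry the ELR motif, attract neutrophils through CXCR2, and are classical targets of the transcription factor NF-kB, which IL1 signalling activates. CXCL16 is made as a membrane protein that ADAM10 and ADAM17 shed, and its receptor is CXCR6.

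In GENCODE annotation of GRCh38, the build named in the submitters' processing notes, IL1A, IL1B and IL1RN lie within 360 kb on chromosome 2 (chr2:112773915-113134016). CXCL8, CXCL1, CXCL3 and CXCL2 lie within 359 kb on chromosome 4 (chr4:73740506-74099293). IL18 lies alone at chr11:112143251-112164117 and CXCL16 at chr17:4733526-4739922, both on the minus strand. RefSeq promoter sequence (GRCh38.p14) was held for 7 of the 9 genes, without IL18 and CXCL16. The following 30 bases, from 95 to 66 bases before the RefSeq start, are shown because the 4 ELR chemokines share a motif there that the other held promoters lack. They read 5′ to 3′ on the strand of the gene, and capitals mark the match to the NF-kB (kB) motif GGANTTTCC.
CXCL1, chr4:73869298-73869327, plus strand: atcgatctggaactccgGGAATTTCCctgg
CXCL2, chr4:74099261-74099290, minus strand: gatcgatctggagctccgGGAATTTCCctg
CXCL3, chr4:74038755-74038784, minus strand: atcgatctggagctccgGGAATTTCCctgg
CXCL8, chr4:73740474-73740503, plus strand: tcgtGGAATTTCCtctgacataatgaaaag
All 4 matches are the same 9 letters, GGAATTTCC, and they begin 78, 77, 78 and 91 bases before the start of CXCL1, CXCL2, CXCL3 and CXCL8. In the 250 bases before the start, both strands searched, 401 of 27305 RefSeq promoters (1.47%) held GGANTTTCC, and those of IL1A, IL1B and IL1RN did not. The AP-1 motif TGANTCA, held by 6.60% of promoters, was found in the windows of CXCL8, IL1A and IL1RN. The motif TTGCNNCAA of C/EBP, held by 1.66% of promoters, was found in none of the 7. For IL1A, IL1B, IL1RN, CXCL2, CXCL3 and CXCL8, GENCODE places a start further upstream than the RefSeq start. These windows can therefore lie inside a GENCODE transcript. The missing kB match of IL1A, IL1B and IL1RN holds for these windows only.

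CXCL1, CXCL2 and CXCL3 are close copies of each other. Of the 1247 different stretches of 50 bases in the GENCODE transcripts of CXCL1, 60 were also present in CXCL2 and 6 in CXCL3, and of the 1546 of CXCL2, 8.99% were present in CXCL3. Near the 3′ end of the transcripts, where this protocol tags, CXCL1 had 702 such stretches and shared the same 60 and 6. CXCL2 had 941 there, of which 41 were present in CXCL3. The sources used here do not give how reads from such stretches were assigned, and the split between these 3 genes is uncertain to that extent. CXCL8 shared no such stretch with any of the other 8 genes.

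A filter of 2000 to 9000 features and under 40% mitochondrial counts kept 291 and 271 cells of the low-resolution plates and 291 and 293 of the high-resolution plates. The plates held between 11709628 and 14992348 transcripts, and the median cell held 30118, 33283, 35409 and 40893 in the same order, so depth was higher at high resolution. The file names place low-resolution replicate 1 on another flow cell than the other 3 plates. Of 9 fixed markers of mammary epithelium, all were found in every plate, with KRT5 in at least 99.6% of cells, but TP63 in only 2.58% to 4.12%. Leukocyte markers PTPRC, CD3E, CD79A and CSF3R were found in at most 1.71% of cells of a plate, while CD14 (36.9% to 59.8%), CSF1R and CD68 were found more widely. The endothelial marker PECAM1 was found in 28.5% to 47.1% of cells, with CDH5 and VWF in at most 0.687%. In each plate the most widely found fibroblast marker was in 17.3% to 27.6% of cells. Summed over each list, epithelial markers reached 49.2 to 65.7 transcripts per 10000, leukocyte markers 0.340 to 0.711, endothelial markers 0.188 to 0.234 and fibroblast markers 0.0664 to 0.132.

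IL18 was found in nearly every cell, and each of the other 8 genes in under 40% of cells on average over the plates. A UMI, the molecular tag that stands for 1 captured transcript, was found for IL18 in 96.2%, 98.5%, 98.6% and 99.3% of cells of low-resolution replicates 1 and 2 and high-resolution replicates 1 and 2. The mean share over 4 plates was 38.6% ± 7.29 (SD, n = 4) for CXCL16, 35.7% ± 14 for IL1A, 34.6% ± 7.60 for CXCL2, 31.6% ± 6.86 for IL1RN and 28.6% ± 15.5 for CXCL8. CXCL1 (19.7% ± 7.35), CXCL3 (17.2% ± 6.53) and IL1B (10.6% ± 2.75) were found in the fewest cells. After each cell was thinned to 10000 UMIs the shares were lower, with 90.9% for IL18, 19.8% for CXCL2, 19.3% for IL1A, 16.4% for CXCL8 and 4.87% for IL1B. In wells with under 2000 features, which were not used as cells and whose median depth was 1395 to 4700 UMIs, the ELR chemokines were found in 0% to 8.62% of wells, IL1B in 0% to 6.00% and IL18 in 31.0% to 41.2%. A well without a UMI is not shown to lack the gene at this depth, and the intervals quoted for shares cover counting error only.

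By plate, IL1A was found in 18.9% (exact 95% interval 14.6 to 23.9), 29.9%, 50.2% (44.3 to 56.1) and 43.7% of cells, and CXCL8 in 11% (7.65 to 15.2), 20.3%, 40.9% (35.2 to 46.8) and 42.3%. Both shares were higher in each high-resolution plate than in each low-resolution plate. The order held for both genes at equal depth, where IL1A was found in 8.71%, 16.8%, 28.2% and 23.7% and CXCL8 in 6.62%, 10.8%, 26.4% and 21.6% of cells. IL1RN ran the other way, with 37.8% and 37.3% at low and 25.1% and 26.3% at high resolution.

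The levels of the 9 genes, as transcripts per 10000 over the summed cells of a plate, spanned 2.51 to 3.10 for IL18 and less than 1 for each of the others. Each captured transcript gives 1 tag from its 3′ end in this protocol, so levels were compared between genes without dividing by length. The order of the means was IL18 (2.85 ± 0.248, SD, n = 4 plates), CXCL2 (0.617), CXCL8 (0.482), IL1A (0.392), CXCL1 (0.279), IL1RN (0.246), CXCL16 (0.177), CXCL3 (0.149) and IL1B (0.0669 ± 0.0133). Only IL18 stood apart from its neighbour in that order, and the plate values of every other pair of neighbours overlapped. In a summed plate, fewer expressing cells and less RNA per cell cannot be told apart.

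Between the experiments, CXCL8 and IL1A were higher and IL1RN was lower at high resolution. In edgeR's quasi-likelihood test on the 4 plate sums with Benjamini-Hochberg adjustment over 12437 genes, 3 of the 9 genes were called, against 12.4% of all genes tested (6.26% higher and 6.18% lower at high resolution). CXCL8, the main neutrophil attractant of epithelia, stood at 0.168 and 0.253 transcripts per 10000 in the low-resolution plates and at 0.633 and 0.875 in the high-resolution plates. The groups did not overlap, and the log2 difference was 1.87 (SE 0.203, adjusted p = 0.000236). IL1A stood at 0.190 and 0.246 at low and 0.664 and 0.467 at high resolution, again without overlap, with a log2 difference of 1.40 (SE 0.191, adjusted p = 0.000863). The antagonist IL1RN stood at 0.318 and 0.291 at low and 0.193 and 0.182 at high resolution, and fell by 0.66 on the log2 scale (SE 0.144, adjusted p = 0.0121). Without high-resolution replicate 2 the IL1RN call was lost (adjusted p = 0.0727).

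**Figure D1:**
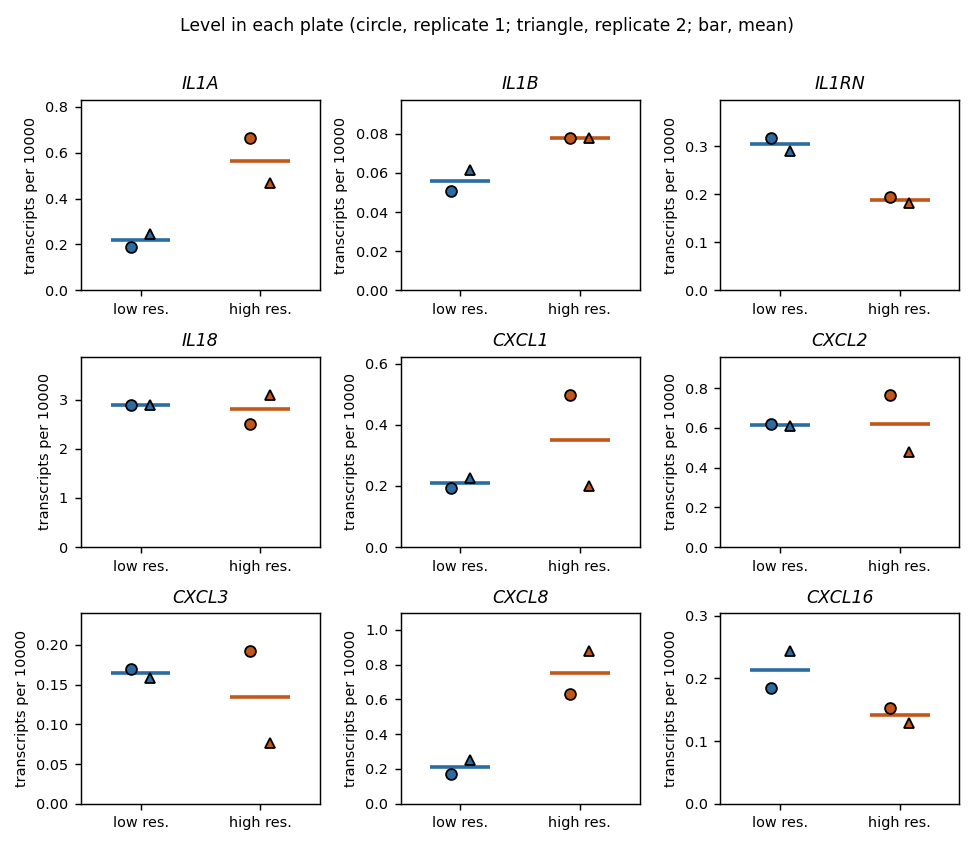
Transcripts per 10000 over the summed cells of each plate (y axis, linear, from 0) for the 9 genes, with low-resolution plates in blue and high-resolution plates in orange, replicate 1 as a circle, replicate 2 as a triangle and the mean of 2 plates as a bar. CXCL8 and IL1A sit higher and IL1RN lower in both high-resolution plates, while CXCL1 is high in high-resolution replicate 1 alone.

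The other 6 genes were not called between the experiments. CXCL16 stood at 0.184 and 0.243 at low and 0.152 and 0.129 at high resolution, a log2 difference of -0.57 (SE 0.191, adjusted p = 0.0700), and 4 of the 11 alternatives tried put it past the threshold. CXCL1 was high in 1 plate, with 0.192 and 0.225 at low but 0.498 and 0.200 at high resolution (log2 difference 0.77, SE 0.312, adjusted p = 0.128). The CXCL1 difference rested on high-resolution replicate 1, since without that plate it was -0.033 and without the other high-resolution plate 1.30. In all, 5 of the 11 alternatives put CXCL1 past the threshold, each of them higher at high resolution. CXCL2 (0.618 and 0.608 against 0.766 and 0.476) and CXCL3 (0.170 and 0.159 against 0.192 and 0.0761) were likewise highest in that plate, with log2 differences of 0.05 (SE 0.182) and -0.27 (SE 0.311). Without that plate the log2 difference of CXCL3 was -1.07. High-resolution replicate 1 was thus the highest plate for CXCL1, CXCL2 and CXCL3, and high-resolution replicate 2 the lowest for CXCL2 and CXCL3. IL1B (0.0506 and 0.0615 against 0.0779 and 0.0776, log2 difference 0.50, SE 0.227, adjusted p = 0.169) and IL18 (2.90 and 2.90 against 2.51 and 3.10, log2 difference -0.01, SE 0.119) complete the list.

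The experiments differed in band width and in patches, which cannot be told apart. Within the flow cell that held 3 of the plates, without low-resolution replicate 1, the log2 differences were 1.58 for CXCL8, 1.20 for IL1A and -0.63 for IL1RN. That leaves 1 low-resolution plate, with no spread measured within its group. With cells thinned to equal depth the differences of CXCL8, IL1A and IL1RN were 2.06, 1.33 and -0.79 on the log2 scale, each past the threshold.

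Of 20 NF-kB target genes outside the 9, 15 were tested, and 7 rose at high resolution, none fell and 8 were not called, against 6.26% higher over all genes. The list was chosen with earlier results of these data known, so this count is a description and no independent test. The median log2 difference of the 15 was 0.59 against -0.02 over all genes, and those not called reached down to -0.92 (BCL2A1). IL6, an inflammatory cytokine, rose by 2.80 on the log2 scale (SE 0.375, adjusted p = 0.000789). LIF, its relative, rose by 2.06 (SE 0.133), the urokinase gene PLAU by 1.61 (SE 0.210) and PTGS2, the inducible cyclooxygenase, by 1.43 (SE 0.234). None of the 10 NF-kB subunits and inhibitors, the 13 tested genes of IL1 receptor signalling or the 9 tested processing enzymes was called. At an unadjusted p under 0.05, 3515 of the 12437 genes would pass in this comparison. CCL20 rose by 1.05 (SE 0.209, adjusted p = 0.00751) and CXCL17 fell by 1.35 (SE 0.321, adjusted p = 0.0183) among 5 other chemokines tested of 12.

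Of the receptors, IL1R1 was found in 31.3% to 41.6% of cells, its partner IL1RAP in 19.6% to 27.6% and the decoy receptor IL1R2 in 13.4% to 30.7%. IL1R1 was the receptor gene called between the experiments, and fell by 0.74 on the log2 scale at high resolution (SE 0.187, adjusted p = 0.0242). The receptors of the other ligands were rarely seen. IL18R1 was found in at most 5.46% of cells of a plate, CXCR2 in 3.69% to 8.53%, CXCR1 in at most 1.02%, and IL18RAP and CXCR6 in 1 cell each of 1146. Of 7 other ligands of the IL1 family, none had enough counts to be tested, and IL36RN, with at most 1.72% of cells, was the most widely found.

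Most counts of the ELR chemokines came from few cells. The highest 10% of cells of a plate held 67.1% to 99.4% of the counts of CXCL1, CXCL2, CXCL3 and CXCL8, and 26.7% to 29.3% of those of IL18. These shares are bounded by how many cells held the gene, which was 10.7% to 44.3% for the ELR chemokines. Single cells reached 125 transcripts of CXCL2 and 106 of CXCL8, where the median cell with a UMI held 2 to 3 of CXCL2 and 1 to 3 of CXCL8. In low-resolution replicate 2, 1 cell held 95.1 transcripts of CXCL3, and was the only cell of that plate with 10 or more. No cell held 10 or more transcripts of CXCL16.

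The 4 ELR chemokines were linked with each other across cells. Correlations across cells within a plate are given as descriptions, with 271 to 293 cells per plate that share a library, and no p-value was computed. The median Spearman rho of the 6 pairs among CXCL1, CXCL2, CXCL3 and CXCL8 was 0.25 ± 0.07 (mean and SD of 4 plates, range 0.18 to 0.34), against 0.02 in each plate over all pairs of 8032 widely found genes. The strongest pairs were CXCL1 with CXCL8 (0.32 ± 0.07), CXCL2 with CXCL3 (0.31 ± 0.03) and CXCL1 with CXCL2 (0.29 ± 0.09). CXCL1, CXCL2 and CXCL3 share stretches of sequence, and CXCL8 shares none with them. Their rho with CXCL8 was 0.32, 0.24 and 0.21 for CXCL1, CXCL2 and CXCL3. Reads misassigned among CXCL1, CXCL2 and CXCL3 could carry into these values as well, which was not tested. With all cells thinned to 10000 UMIs the median of the 6 pairs was 0.24, and with depth, mitochondrial share and cell cycle scores held constant it was also 0.24. With the EMT score (described below) held constant it was 0.205.

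CXCL8 was found in 28.6%, 46.5%, 58.3% and 70.3% of the cells with CXCL1, and in 8.59%, 15.4%, 33.8% and 34.5% of the cells without it, in low-resolution replicates 1 and 2 and high-resolution replicates 1 and 2. CXCL3 was found in 30.3%, 24.7%, 40.3% and 27.1% of the cells with CXCL2 and in 11.4%, 5.56%, 14.8% and 7.53% of those without. In every plate the partner was more frequent in the cells that had the first gene.

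**Figure D2:**
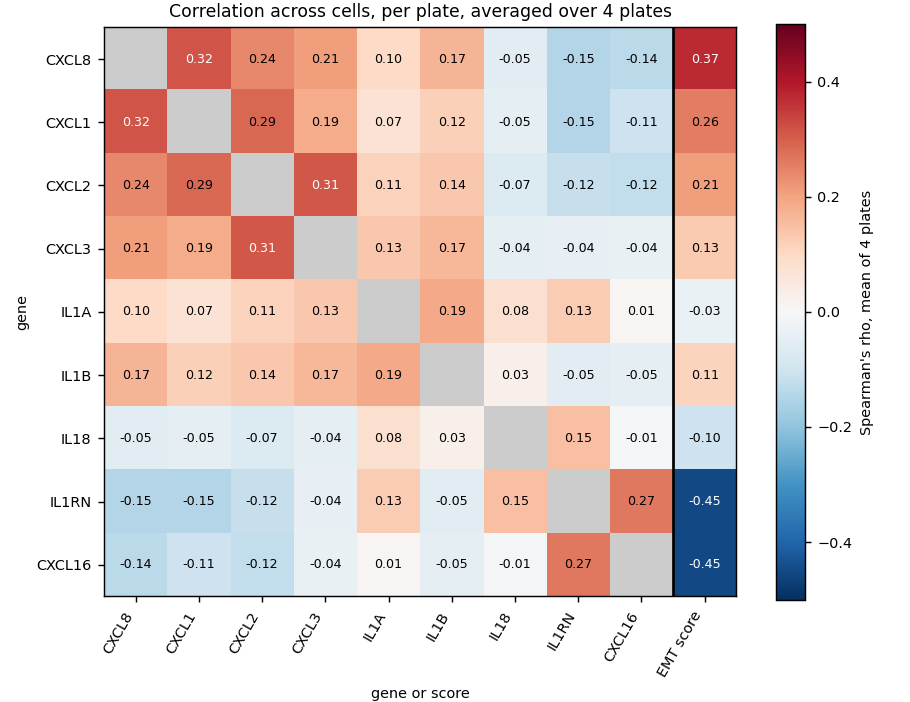
Spearman's rho across cells of a plate, averaged over the 4 plates, for each pair of the 9 genes and, right of the line, for each gene with the EMT score. The block of CXCL8, CXCL1, CXCL2 and CXCL3 at the upper left holds values from 0.19 to 0.32, and IL1RN with CXCL16 at the lower right holds 0.27.

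IL1A and IL1B were linked with each other (rho 0.19 ± 0.10) and more weakly with the ELR chemokines, with a median of 0.12 over 8 pairs. IL1RN and CXCL16 formed the other linked pair, with a rho of 0.20, 0.22, 0.40 and 0.24 in the 4 plates and a mean of 0.27 ± 0.09. CXCL16 was found in 54.5%, 60.4%, 63.0% and 55.8% of the cells with IL1RN and in 30.4%, 40.0%, 18.8% and 30.6% of those without. Between this pair and the ELR chemokines rho was below 0 on average, at -0.15 for IL1RN with CXCL8 and with CXCL1 and -0.14 for CXCL16 with CXCL8. IL1RN with its target cytokine IL1A had a mean rho of 0.13, and with IL1B -0.05. Values of this size in sparse counts are given for completeness. The 21 pairs that hold IL1RN, IL18 or CXCL16 had a median of -0.04. With the EMT score (described below) held constant this median was 0.01, so the negative sign was not kept.

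At least 1 of the 4 ELR chemokines was found in 45.0%, 46.5%, 71.1% and 68.3% of cells, and 3 or 4 of them in 6.87%, 5.90%, 21.3% and 10.2%. At equal depth 3 or 4 were found in 3.14%, 2.24%, 10.2% and 4.12%. The 20, 16, 62 and 30 cells with 3 or 4 held 57.0%, 60.2%, 70.9% and 45.0% of all counts of these genes in their plates. These cells were picked by the same genes whose counts were summed, so a share of counts above their share of cells follows in part from the choice. IL1A or IL1B was found in 55.0%, 50%, 64.5% and 56.7% of these cells and in 17.5%, 28.3%, 46.4% and 39.8% of the cells with none of the 4. The cells with 3 or 4 had a higher median depth (33128 to 38778 against 29289 to 34864 transcripts) and a lower median mitochondrial share (26.2% to 29.8% against 30.4% to 32.0%), whose part was not tested.

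**Figure D3:**
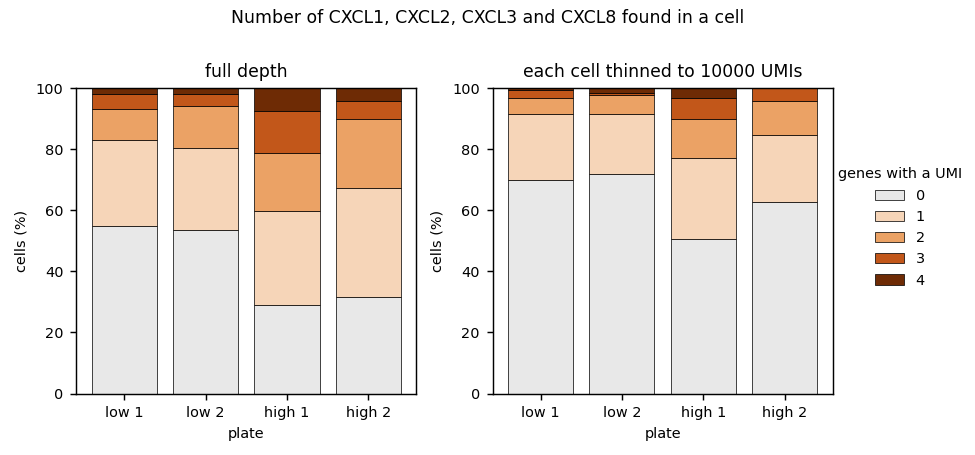
Share of cells (y axis, percent) of each plate with a UMI for 0, 1, 2, 3 or 4 of CXCL1, CXCL2, CXCL3 and CXCL8, at full depth on the left and with each cell thinned to 10000 UMIs on the right. The share with none is 55.0% and 53.5% at low and 28.9% and 31.7% at high resolution, and the share with 3 or 4 is largest in high-resolution replicate 1, at 21.3%.

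Outside the 9 genes, the genes most like each widely found member were taken by mean rho over the 4 plates. For CXCL2 these were NFKBIA (0.29), SOD2 (0.28) and NFKBIZ (0.27). For IL1RN they were MAL2 (0.46), CD24 (0.43) and RAB25 (0.42), and for CXCL16 FXYD3 (0.45), CLDN7 (0.45) and AP1M2 (0.44). IL18 had no gene above CLIC3 (0.24), followed by NDUFA4 (0.24) and KRT5 (0.24). The other 5 members were not found in 20% of cells of every plate and were not ranked.

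The epithelial-to-mesenchymal transition (EMT) was the state along which the study placed its cells. An EMT score was computed per cell as a mesenchymal minus an epithelial gene set score, from 64 found epithelial and 98 to 100 found mesenchymal genes, none of which is among the 9. The ELR chemokines rose with the score and IL1RN and CXCL16 fell. CXCL8 had a rho of 0.23 and 0.33 with the score at low and 0.49 and 0.45 at high resolution, CXCL1 of 0.22, 0.28, 0.24 and 0.29, and CXCL2 of 0.24, 0.24, 0.19 and 0.17. IL1RN had -0.41, -0.45, -0.51 and -0.43 and CXCL16 -0.37, -0.48, -0.53 and -0.42, so both were strongest in high-resolution replicate 1. CXCL3 (mean 0.13), IL1B (0.11), IL18 (-0.10) and IL1A (-0.03) had weak values. Of the 4 members among 7959 widely found genes outside the score's lists, 2 (IL1RN and CXCL16) were at -0.3 or lower in all 4 plates, as were 2.41% of these genes, and none was at 0.3 or higher, as were 2.3%.

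Single markers of the 2 states were also set against the genes. CXCL8 had a mean rho of -0.30 with CDH1 (E-cadherin) and -0.32 with EPCAM, both epithelial adhesion genes, and of 0.35 with fibronectin (FN1) and 0.28 with vimentin (VIM). IL1RN had 0.36 with CDH1 and -0.30 with FN1, and CXCL16 0.37 and -0.35. The mean rho of IL1A lay between -0.04 and 0.05 with each of the 4 markers. With depth, mitochondrial share and cell cycle scores held constant, the mean rho with the EMT score was 0.34 for CXCL8, -0.39 for IL1RN and -0.41 for CXCL16.

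The cells of each plate were then ranked by the EMT score and split into tertiles of 90 to 98 cells, and the summed upper and lower tertiles were compared with the plate as a block. All 9 genes were called over 11302 genes tested, 5 higher and 4 lower in the upper tertile, where 20.2% of all genes were called higher and 20.6% lower. CXCL8 rose most, from 0.0109, 0.0270, 0.0550 and 0.187 transcripts per 10000 in the lower tertiles of low-resolution replicates 1 and 2 and high-resolution replicates 1 and 2 to 0.402, 0.633, 1.16 and 2.23 in the upper tertiles. Its tertiles did not overlap across plates, and the log2 difference was 3.98 (SE 0.177, adjusted p = 1.05e-08). CXCL8 was found in 3.09% to 23.5% of cells of the lower tertiles and in 20.6% to 73.5% of the upper ones.

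CXCL1 rose from 0.0355, 0.0243, 0.144 and 0.0676 to 0.502, 0.593, 0.823 and 0.302 (log2 difference 2.92, SE 0.265, adjusted p = 3.85e-06). CXCL3 rose from 0.0464, 0.0162, 0.0550 and 0.0541 to 0.392, 0.432, 0.229 and 0.112 (2.52, SE 0.361, adjusted p = 0.000161). In low-resolution replicate 2, 1 cell held 95.1 of the 140 CXCL3 counts of the upper tertile. In high-resolution replicate 2, CXCL3 was found in 12.2% of cells of the lower and 15.3% of the upper tertile. The CXCL3 call was kept in all 15 alternatives, among them the sums without the highest cell. CXCL2 rose from 0.194, 0.0622, 0.369 and 0.318 to 1.48, 1.35, 0.896 and 0.604 (2.05, SE 0.380, adjusted p = 0.00104). The tertiles of these 3 genes did not overlap across plates either. IL1B was higher in the upper tertile of every plate (0.110, 0.127, 0.0484 and 0.121 against 0.00819, 0.0297, 0.0229 and 0.0586), though the plates overlapped (log2 difference 1.64, SE 0.333, adjusted p = 0.00197). The IL1B sums were small, with 3 to 26 counts in the lower tertiles, and the call was lost when the highest cell of each gene and plate was left out (0.91, adjusted p = 0.0508).

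IL1RN fell from 0.592, 0.541, 0.401 and 0.419 in the lower tertiles to 0.100, 0.0680, 0.0135 and 0.0242 in the upper ones, by 3.43 on the log2 scale (SE 0.245, adjusted p = 5.03e-07). CXCL16 fell from 0.308, 0.384, 0.325 and 0.268 to 0.0628, 0.0680, 0.0215 and 0.0441, by 2.81 (SE 0.206, adjusted p = 6.37e-07). Neither overlapped between tertiles, and CXCL16 was found in 62.2% to 72.2% of cells of the lower and 8.25% to 20.9% of the upper tertiles. IL18 changed least, with 3.07, 3.05, 2.76 and 3.65 against 2.39, 2.78, 2.20 and 2.87, and fell by 0.38 (SE 0.0775, adjusted p = 0.00205). IL1A fell by 0.86 (SE 0.209, adjusted p = 0.00617), from 0.232, 0.227, 0.814 and 0.552 to 0.210, 0.229, 0.288 and 0.275. Its fall lay in the high-resolution plates, and the 2 low-resolution plates alone gave a log2 difference of -0.15 (SE 0.188, adjusted p = 0.569). Without high-resolution replicate 1 the call of IL1A was lost (-0.54, adjusted p = 0.0535).

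**Figure D4:**
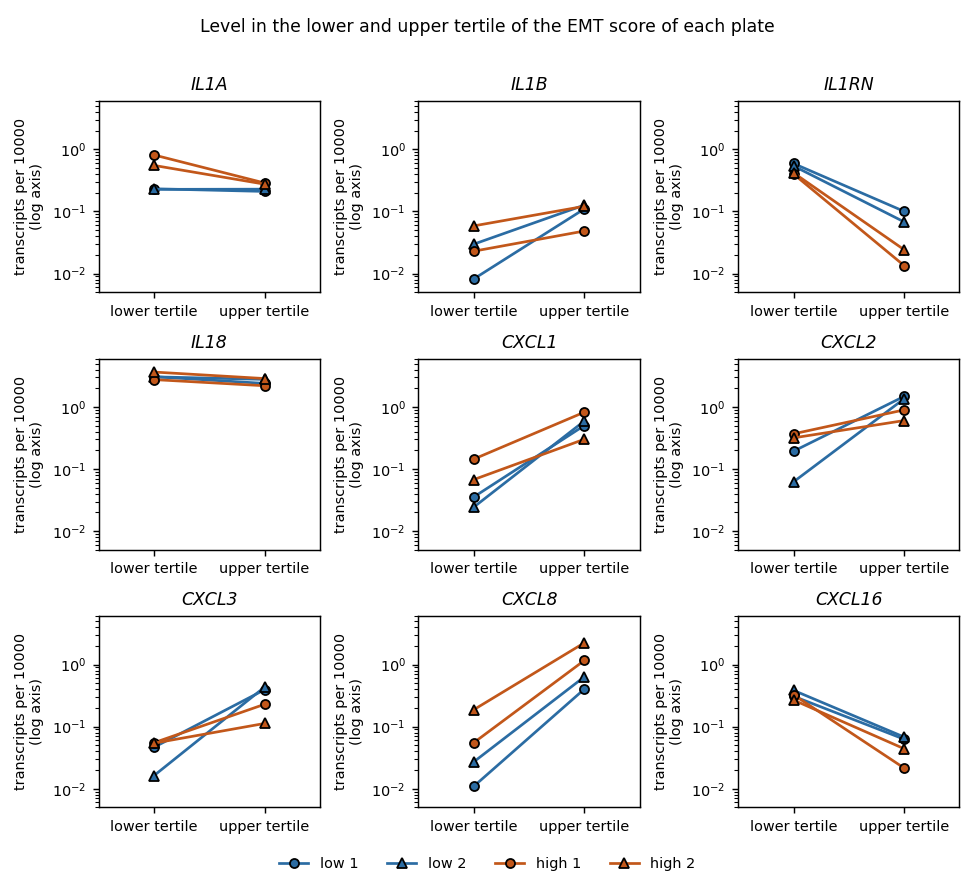
Transcripts per 10000 (y axis, log scale) of the 9 genes in the summed lower and upper tertile of the EMT score of each plate, with 1 line per plate, blue for low and orange for high resolution. CXCL8 rises in all 4 plates to between 0.402 and 2.23, IL1RN falls in all 4 to between 0.0135 and 0.100, and IL1A falls to 0.288 and 0.275 at high resolution while it lies between 0.210 and 0.232 in both tertiles at low resolution.

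The tertiles also differed in state. The median mitochondrial share was 31.7% to 33.8% in the lower and 25.9% to 29.1% in the upper tertiles, and the median depth was lower in the upper tertile of both low-resolution plates (27494 against 33374 and 30436 against 36922) and higher in that of high-resolution replicate 2 (42624 against 38171). Cell cycle scores moved with the tertiles as well, and the median G2M score went from -0.38, -0.44, -0.51 and -0.53 in the lower to -0.27, -0.35, -0.077 and 0.22 in the upper tertiles, with the S score also higher in the upper tertile of every plate. The part of these in the tertile differences was not tested beyond equal depth, where IL18 (adjusted p = 0.0986) and IL1A (adjusted p = 0.215) were no longer called. Between 32 and 42 cells of a plate lay within 0.05 score units of a cut.

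The difference between tertiles was itself smaller or more negative at high resolution for 5 genes. In the test of this difference (the interaction of tertile and experiment), 5 of the 9 genes were called, all lower at high resolution, against 2.63% of 11302 genes in either direction and 1.89% lower. The score was fitted per experiment and the tertiles were cut per plate, so they need not hold the same EMT state in both experiments. The upper tertiles spanned scores of 0.622 to 1.03 and 0.459 to 1.04 at low, and 0.555 to 0.878 and 0.521 to 0.932 at high resolution. The part of this was not tested. CXCL2 rose by 3.40 on the log2 scale (SE 0.188) in the low-resolution plates alone and by 1.03 (SE 0.123) in the high-resolution plates alone, a difference of -2.37 (SE 0.295, adjusted p = 0.000480). CXCL3 rose by 3.62 and 1.52 (difference -2.10, SE 0.483, adjusted p = 0.0310), and CXCL1 by 4.09 and 2.30 (-1.80, SE 0.339, adjusted p = 0.0112). The low-resolution rise of CXCL3 included the 1 cell with 95.1 transcripts in low-resolution replicate 2. For CXCL1 and CXCL2 both high-resolution plates had higher levels in the lower tertile than both low-resolution plates, and for CXCL2 and CXCL3 lower levels in the upper tertile. IL1RN fell by 2.84 at low and 4.47 at high resolution (difference -1.63, SE 0.387, adjusted p = 0.0363), and IL1A had -0.15 and -1.34 (difference -1.19, SE 0.234, adjusted p = 0.0145). The differences of CXCL8 (-0.92, SE 0.414, adjusted p = 0.30), IL1B (-1.58, SE 0.546, adjusted p = 0.154), CXCL16 (-0.71, SE 0.407) and IL18 (-0.09, SE 0.115) were not called. Of the 5 calls, only that of CXCL2 was kept in all alternatives that tested it, while without the plate block it was the single gene of the 9 called, and at equal depth CXCL1 and CXCL2 were. Without low-resolution replicate 2 the calls of CXCL1, CXCL3 and IL1A were lost, without low-resolution replicate 1 or high-resolution replicate 1 that of IL1RN, and without high-resolution replicate 2 that of CXCL3.

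The link among the ELR chemokines also differed along the score. The median rho of their 6 pairs was 0.07 ± 0.04 (SD, n = 4 plates) within the lower tertiles and 0.33 ± 0.04 within the upper ones, and 0.05 and 0.24 at equal depth. Each value within a tertile rests on under 100 cells. Fewer cells of the lower tertiles held these genes (for CXCL1, 5.56% to 16.5% against 23.7% to 40.2% of the upper ones), and the part of this in the difference of rho was not tested.

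Of the pathway genes outside the 9, NF-kB targets were mostly higher in the upper tertiles. Of 14 tested, 10 rose and 1 fell, where 20.2% of all genes were called higher and 20.6% lower. Here too the list was chosen with earlier results of these data known, and the count is a description. The median log2 difference of the 14 was 0.87 against 0.00 over all genes. IL6 rose by 2.94 on the log2 scale (SE 0.427), ICAM1, a leukocyte adhesion molecule, by 2.77 (SE 0.422), CD83 by 1.65 (SE 0.299) and SOD2, the mitochondrial superoxide dismutase, by 1.55 (SE 0.108). Of 10 NF-kB subunits and inhibitors 4 rose and 2 fell, the latter close to the share over all genes. RELB stood at 1.11 (SE 0.154), NFKBIZ at 0.95 (SE 0.166), NFKBIA, an inhibitor that NF-kB itself induces, at 0.70 (SE 0.103) and BCL3 at -0.74 (SE 0.174). The receptor gene IL1R1 rose by 1.60 (SE 0.194, adjusted p = 4.17e-05), opposite to its antagonist IL1RN, and IL1RL1, the IL33 receptor, by 4.63 (SE 0.443). They were 2 of the 5 receptor and decoy genes tested, a short list to set against the 20.2% of all genes called higher.

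Among 13 tested genes of IL1 receptor signalling, 3 rose and 1 fell, and of 9 tested processing enzymes 3 rose and 2 fell. With 20.2% of all genes called higher and 20.6% lower between tertiles, these counts do not set either list apart. The signalling genes called were the kinase gene IRAK2 (1.72, SE 0.273), with TAB3 at -0.63, MAP3K7 at 0.54 and IKBKG at 0.49. Of the enzymes, GSDMD, which forms the pore that releases mature IL1, rose by 1.47 (SE 0.447) and ADAM17, a sheddase of CXCL16, by 0.39 (SE 0.111), while CAPN1, a calpain, fell by 1.04 (SE 0.107) and CASP4, an inflammatory caspase, by 0.51 (SE 0.101). Of the other chemokines, CCL20 rose by 1.61 (SE 0.243) and CXCL17 fell by 4.77 (SE 0.476). In the interaction, IL1R2 had the largest change of these lists, -4.23 (SE 0.347, adjusted p = 1.59e-05), and CCL20 was also lower at high resolution, by -1.52 (SE 0.198, adjusted p = 0.000653). The NF-kB targets BIRC3 (0.68, SE 0.159, adjusted p = 0.0338) and ZC3H12A (0.64, SE 0.148, adjusted p = 0.0321) were called the other way, as 2 of 14 tested. Of all 11302 genes tested in the interaction, 83 were called in that direction.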

How the data were processed

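Single-cell RNA-seq (SORT-seq) was made from 4 plates of 384 wells. The deposited values are expected counts per gene and well, in which the UMI number had been corrected upward for UMIs that coincide by chance, without scaling for depth. The submitters' processing notes name STAR 2.7.3a, hg38 and Seurat 4, while annotation and strand setting are not stated. Well numbers recur in every plate by design. The correction, based on 4096 possible UMIs, was undone to whole UMIs for thinning to 10000 per cell, which left 1130 of 1146 cells. Spike-ins (0.833% to 1.38% of counts) stayed out of library sizes, and doublets were not called beyond the limit of 9000 features.

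Counts were log-normalized to 10000. The EMT score was GSVA (Gaussian kernel, 1 fit per experiment, written for this work in Python 3.11.15) of 115 mesenchymal minus 65 epithelial listed genes. Tests used edgeR 4.0.16 (quasi-likelihood, TMM, filterByExpr, Benjamini-Hochberg, threshold 0.05) on expected counts that were summed over cells and then rounded. Standard errors were derived from the F statistic. Each experiment had 2 biological replicates. Both comparisons were tried on simulated sums with 200 genes changed by 1 log2 unit. The comparison of experiments recovered 81% with 7 false calls (12262 genes, dispersion 0.01, and 16% with 3 in 12255 genes at dispersion 0.05). The tertile comparison recovered 84.5% with 9 (11010 genes, dispersion 0.01, and 52.5% with 3 in 11032 genes at dispersion 0.05). The scoring was also tested on simulated data.

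The genes named are the 9 members, the 3 genes most like each member that was found in 20% or more of the cells in all plates, the receptors, up to 4 genes with the largest called changes per list, CDH1, EPCAM, VIM and FN1, and cell type markers. IL36RN and BCL2A1 were named after their values were seen. The members and lists were chosen with earlier results of these data known. Alternatives were DESeq2 1.42.0, no count filter, cells of equal depth, no limit on the mitochondrial share, totals without mitochondrial counts, a mean z-score in place of GSVA, a split of the score at its median, partial correlations, the replicate block and each plate left out. Single experiments alone, and sums without the highest cell of each gene and plate, were chosen after seeing the data. No protein sequences were used.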

Additional observations from a re-analysis of the deposited data

Results flagged for a closer look

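Of the 27 sets of 4 plate values examined (level, tertile ratio and rho with the EMT score for each of 9 genes), 2 held a plate far from the others by Dixon's test, and chance alone gives about 1 in 20. CXCL1 stood at 0.498 transcripts per 10000 in high-resolution replicate 1, against 0.192 to 0.225 in the other 3 plates. The log2 ratio of the upper to the lower tertile of IL18 was -0.14 in low-resolution replicate 2, against -0.36 to -0.33 in the others.

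For 5 genes the difference between tertiles of the EMT score itself differed between the experiments (edgeR's quasi-likelihood test of the interaction, log2 scale, high minus low resolution, 2 plates each). The values were -2.37 for CXCL2, -2.10 for CXCL3, -1.80 for CXCL1, -1.63 for IL1RN and -1.19 for IL1A. Tertiles were cut per plate on a score fitted per experiment, and need not hold the same EMT state in both.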

How the results depend on the processing

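The limits are that only 2 plates per experiment set the precision and that low shares of cells depend on depth. Of the 9 genes, 3 were called between experiments, 9 between tertiles and 5 in the interaction, and causes of the following changes were not tested. The replicate numbers did not pair the plates (correlation of replicate differences -0.02 over 12437 genes). With the replicate block, 2023 genes and 5 of the 9 were called between experiments, against 1547 and 3, and without a count filter also 5 of the 9. DESeq2 called 1050 and equal depth 1046 genes, and leaving out single plates gave 982 to 1172 genes and 3 to 5 of the 9. Signs turned for IL18, CXCL1, CXCL2 and CXCL3, which were not called with all plates. The log2 difference of IL18 was 0.0047 with DESeq2 and -0.16 to 0.13 when plates were left out, that of CXCL1 -0.033 to 1.30, that of CXCL2 -0.33 to 0.37, and that of CXCL3 -1.07 to 0.27, and 0.34 without the highest cell. Between tertiles 4604 genes were called, 2840 at equal depth (7 of the 9), 2956 with no replicate block (8 of the 9) and 3794 to 3983 without single plates (8 to 9 of the 9). In the interaction 297 of 11302 genes were called. DESeq2 called 62, but gave an adjusted p to only 3831 genes and 4 of the 9, of which it called 1. Without a filter 486 genes were called, at equal depth 101 of 8656 (2 of the 9) and with no replicate block 31 (1 of the 9). With the score split at its median 624 genes were called, and with a mean z-score 3 of the 9. Without low-resolution replicate 2 the interaction kept 2 of the 9. CXCL8 there turned to 0.55 without the mitochondrial limit and 0.15 with the z-score, and IL18 spanned -0.20 to 0.044 without single plates. At equal depth the median rho of all 36 pairs was 0.0406, and 36.1% against 57.7% of cells held an ELR chemokine. The rho limit with the score was held there by 142 of 4346 genes tested, against 375 of 7959. Of the members, 0 of the 9 against 2 held it, but only 1 was tested at equal depth, against 4. IL1RN and CXCL16 were then found in under 20% of cells of some plates and were not tested, so the 0 does not show a loss for them. Their mean rho with the score at equal depth was -0.34 and -0.30.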
